A study of Mus musculus with 6 samples.

Results

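The genes described here are 55 components of protein entry into the endoplasmic reticulum (ER) and of transport between the ER and the Golgi apparatus, found by gene symbol among the 22564 protein-coding genes of a table of mouse liver RNA sequencing. They fall into 22 genes of signal recognition and the translocon, 11 of the COPII coat, 10 of the COPI coat and 12 receptors and SNAREs. The treated libraries (n = 3) came, per their labels, from the liver of male C57BL/6 mice, bought at 8 weeks and 10 weeks old, that were injected intraperitoneally with tunicamycin at 0.2 mg/kg each day for 14 days. The control libraries (n = 3) carried the same strain, sex, age and tissue labels, and the sources used here do not say whether these mice received vehicle. Neither group carried an engineered allele in the labels. Nothing in the labels says that the libraries came from separate mice. The p-values therefore rest only on spread between these libraries, which may be technical. In the main test that spread was almost wholly the one usual for genes of similar level, not a gene's own.

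Secreted and membrane proteins are recognised by the signal recognition particle as they leave the ribosome, brought to its receptor on the ER, and threaded through the Sec61 channel, while signal peptidase removes the signal peptide. Folded cargo leaves in vesicles coated with COPII, and vesicles coated with COPI carry escaped ER residents and recycling receptors back. The hepatocyte, the main cell of the liver, sends albumin, lipoproteins and clotting factors through this route, and tunicamycin blocks the N-linked glycosylation of proteins as they enter it. Many genes of the route are known targets of the unfolded protein response.

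The libraries held 611041, 553793 and 595501 reads on protein-coding genes after tunicamycin and 541022, 577234 and 661145 in controls, where reads are the authors' estimated counts brought back to whole reads. Between 13.1% (control 1) and 23.7% (tunicamycin 1) of the genes had any read. A gene without reads could still account for up to 0.000454% to 0.000555% of a library (3 reads, covering counting error only). Several features went against the labels: 4 Y-linked genes held 1 read over all 6 libraries, against 2020 reads on their 4 X-linked partners, in livers labelled male. Of 9 hepatocyte markers, 6 had no read in any library, among them Ttr, Apoa1 and Cps1. The summed level of the list was 155.06 to 179.08 FPKM after tunicamycin and 296.35 to 492.42 FPKM in controls. Most of it was Alb, at 132.9, 96.3 and 127.1 FPKM after tunicamycin and 230.8, 300.5 and 212.7 FPKM in controls. Markers of other cells were missing too. None of 4 endothelial and 3 red blood cell markers had a read. Of 5 cholangiocyte markers, 1 (Spp1) had no read in any library. Together the 5 summed to 124.03 to 209.48 FPKM after tunicamycin and 139.2 to 195.33 FPKM in controls. FPKM values are fragments scaled to transcript length and library size, so they compare levels per length. In whole tissue, fewer cells of a type and less RNA per cell cannot be told apart, and the part of either in the values below was not tested. Gapdh, used by every cell, had 0, 106 and 0 reads after tunicamycin and 0, 1 and 465 in controls, so an exact 0 is given below only as listed at 0.

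Transport genes were read more often than genes at large, yet few of them were read in every library. Of the 55 genes, 42, 33 and 33 had reads in the tunicamycin libraries and 20, 35 and 31 in the control libraries, at most 76.4% after tunicamycin and at least 36.4% in controls. Control 1, the library with the fewest genes read, stood apart from the other 5. Together the 55 genes took 0.546%, 0.559% and 0.568% of the reads after tunicamycin and 0.465%, 0.536% and 0.612% in controls, so their summed share overlapped between the groups. These shares include a single gene, Lars2, in each total. Lars2 held 142618, 92760 and 110445 reads after tunicamycin and 78548, 95728 and 105974 in controls. Shares without Lars2 are not given here. Reads were present in all 6 libraries for 9 of them, 16.4%, against 4.7% of all genes, and in none for 3 of them, 5.5%, against 62.0% of all genes. The 9 were Sec61a1, Ssr1, Ssr2, Ssr3, Sec24c, Copa, Copz1, Arf4 and Surf4. The 3 without reads were Srp14, which pairs with Srp9 in the signal recognition particle, Srp54a, which binds the signal peptide, and Sar1b, the GTPase that starts COPII assembly for large lipoproteins. The deposited table gives 16 of the 55 genes a locus that it also gives to other genes, so the assignment of their reads, zeros included, is uncertain: Kdelr3 shares its locus with 20 other genes, Sec24a and Sar1b share 1 locus with 18 others each, Sec61a1 shares with 9, Srpr and Arf4 with 3 each, and Srprb, Sec62, Spcs1, Sec11a, Sec24c, Sec24d, Copa, Copg1, Copg2 and Surf4 with 1 or 2.

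**Figure D1:**
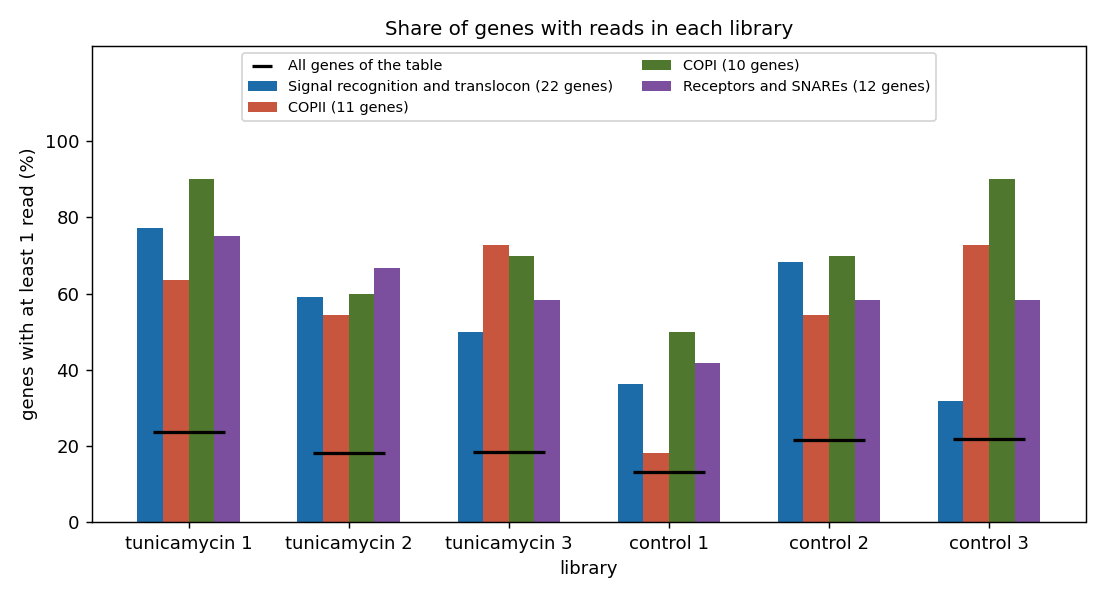
Share of genes with at least 1 read in each library (bars, vertical axis in percent from 0), for the 4 role groups, with a black line for all genes of the table. Every bar lies above the line of its library, and control 1 has the lowest share of COPII genes (2 of 11) and of COPI genes (5 of 10).

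A zero in 1 library beside 50 or more reads in another of the same group was common. Among the transport genes that reached 50 reads in some tunicamycin library, 17 of 37 (45.9%) were listed at 0 in another tunicamycin library, and in controls 23 of 36 (63.9%). Over all genes these shares were 60.4% after tunicamycin and 66.1% in controls. The map of levels by library shows this patchwork in each role group.

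**Figure D2:**
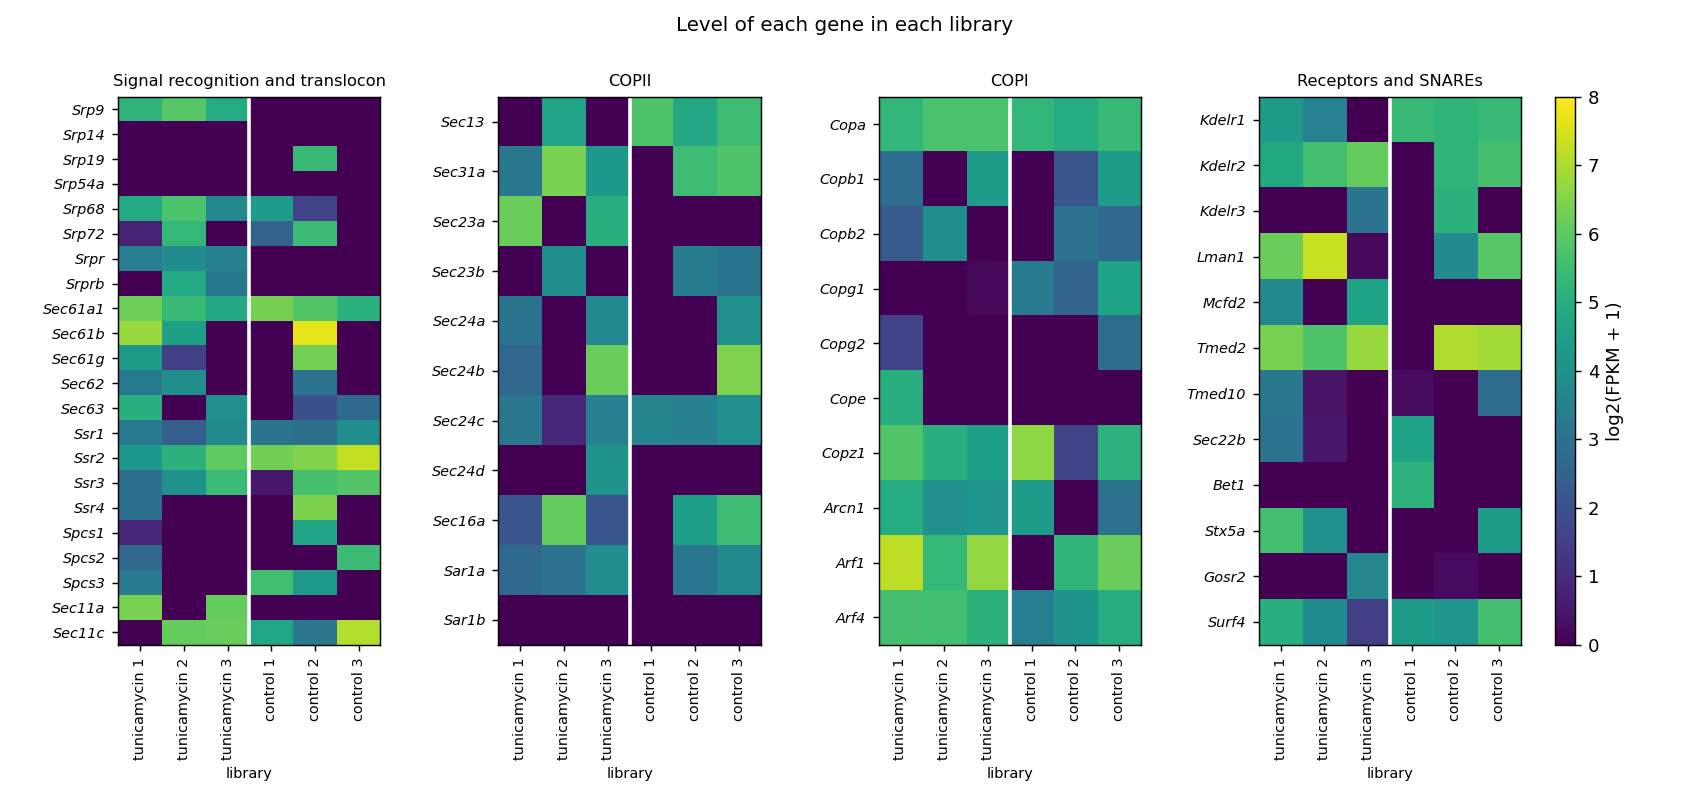
Level of each of the 55 genes (rows) in each library (columns, tunicamycin left of the white line, control right of it), coloured by log2(FPKM + 1) from 0 to 8. Srp9 and Srpr have signal in the 3 tunicamycin libraries alone, Copa is nearly even over all 6, and control 1 is dark for most COPII genes.

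In the signal recognition particle, Srp9 had the smallest unadjusted p of the set. Srp9, which helps to pause translation while the ribosome is brought to the ER (chr1:182124737-182132407, plus strand, mm10), had 35.8, 59.8 and 29.3 FPKM from 66, 129 and 36 reads after tunicamycin, and was listed at 0 in all 3 control libraries. The groups therefore did not overlap. On log2(FPKM + 1) the limma estimate was 5.35 (SE 2.02, 95% interval 1.38 to 9.32), with an unadjusted p of 0.00820 and a Benjamini-Hochberg adjusted p of 0.852 in limma over all genes. This estimate depends on the pseudocount of 1 and is no measured fold, since the controls were at 0. Srp68, which holds the particle's RNA together with Srp72, had 28.9, 52.2 and 12.3 FPKM after tunicamycin and 20.4, 2.06 and 0 FPKM in controls. Tunicamycin 3 lay below control 1, so the groups overlapped. Srp72 had reads in the first and second libraries of both groups, with 3 and 29 after tunicamycin and 4 and 39 in controls. Srp19 was seen only in control 2, with 34 reads. Srp54a was listed at 0 throughout. Of its near-identical copies, Srp54b held 11 reads in control 1 alone and Srp54c at most 7 in any library, so reads of Srp54a could have been split or dropped in counting.

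Both subunits of the particle's receptor were read after tunicamycin and in no control library. Srpr, the alpha subunit that docks the particle at the ER membrane (chr9:35200175-35247973, plus strand), had 9.81, 13.5 and 10.5 FPKM from 54, 69 and 56 reads after tunicamycin, and was listed at 0 in the 3 control libraries. Its 3 tunicamycin libraries lay close together. The limma estimate was 3.61 (SE 2.02, 95% interval -0.35 to 7.56). Srprb, the membrane-anchored beta subunit (chr9:103188032-103202137, minus strand), had 0, 28.5 and 8.48 FPKM after tunicamycin and was listed at 0 in all controls, so its groups met at 0. Srp9 and Srpr were the 2 transport genes with reads in all 3 tunicamycin libraries and no control library, a pattern that 0.897% of the tested genes showed. A processed copy, Gm6733, is 97.4% identical to Srpr, which leaves its value uncertain.

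Of the 3 Sec61 channel genes, Sec61a1 alone was read in every library, and its groups overlapped. Sec61a1, the pore-forming subunit (chr6:88503579-88518905, minus strand), had 73.7, 41.0 and 27.4 FPKM after tunicamycin and 80.8, 57.0 and 33.7 FPKM in controls. The means were 47.3 ± 23.8 FPKM after tunicamycin and 57.2 ± 23.5 FPKM in controls (SD, n = 3 each), and the limma estimate was -0.30 (SE 1.29, 95% interval -2.83 to 2.24). By reads the ratio of the groups was 0.53, lower than the 0.83 of the mean FPKM. Sec61b and Sec61g, the small subunits, had 108, 22.2 and 0 and 19.3, 1.85 and 0 FPKM after tunicamycin. In controls only the second library had them, at 207 FPKM for Sec61b and 79.4 FPKM for Sec61g. Each has a copy at least 99.1% identical elsewhere in the genome, so these values are uncertain. Sec62 and Sec63, partners of the channel for proteins that enter after translation, had reads in 2 tunicamycin libraries each, and in 1 control library for Sec62 and 2 for Sec63.

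The translocon-associated TRAP complex, which helps certain signal peptides to open the channel, had 3 of its 4 genes read in all 6 libraries. Ssr2, its beta subunit (chr3:88575876-88588419, plus strand), had 18.4, 34.0 and 63.9 FPKM after tunicamycin and 78.4, 88.0 and 151.5 FPKM in controls. Every tunicamycin library lay below every control library, at a mean of 38.8 ± 23.1 FPKM after tunicamycin and 106.0 ± 39.7 FPKM in controls (SD, n = 3 each), a ratio of 0.37 by FPKM and 0.38 by reads. The limma estimate was -1.54 (SE 1.21, 95% interval -3.91 to 0.83, adjusted p 0.852), so an absent difference and a several-fold lower level both lay inside the interval. A stretch of an Rtraf transcript is 98.6% identical to Ssr2, which leaves the assignment of reads uncertain. Ssr1, the alpha subunit, had 8.78, 4.29 and 12.8 FPKM after tunicamycin and 7.37, 6.68 and 14.3 FPKM in controls, overlapping throughout. Ssr3, the gamma subunit, had 6.63, 16.1 and 43.1 FPKM after tunicamycin and 0.444, 49.99 and 56.7 FPKM in controls, a spread inside each group wider than the gap between them. Ssr4 was read in tunicamycin 1 with 6 reads and in control 2 with 91.

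Of the catalytic subunits of signal peptidase, Sec11a was read after tunicamycin only and Sec11c in both groups. Sec11a (chr7:80904889-80947780, minus strand) had 83.6, 0 and 68.7 FPKM from 92, 0 and 76 reads after tunicamycin and was listed at 0 in the 3 controls. Its limma estimate was 4.18 (SE 2.05, 95% interval 0.15 to 8.20), with an unadjusted p of 0.0422 and an adjusted p of 0.852 in limma. Sec11c had 0, 67.5 and 71.1 FPKM after tunicamycin and 24.97, 8.13 and 134.8 FPKM in controls, with every tunicamycin value inside or below the control range. The accessory subunits Spcs1, Spcs2 and Spcs3 were read in tunicamycin 1 alone among the treated libraries, with 1, 28 and 57 reads. In controls Spcs1 had 25 reads in control 2, Spcs2 had 223 in control 3, and Spcs3 had 271 and 117 in controls 1 and 2. A pseudogene 96.8% identical to Spcs2 leaves its reads uncertain.

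Among COPII genes the outer coat gene Sec13 separated the groups. Sec13, which forms the cage with Sec31a (chr6:113728062-113740743, minus strand), had 0, 24.5 and 0 FPKM from 0, 52 and 0 reads after tunicamycin and 54.1, 27.7 and 44.9 FPKM from 112, 60 and 102 reads in controls. The highest tunicamycin library lay just under the lowest control. The limma estimate was -3.83 (SE 1.89, 95% interval -7.53 to -0.12), with an unadjusted p of 0.0429 and an adjusted p of 0.852 in limma. Sec31a, its partner in the cage, had 8.19, 82.0 and 18.2 FPKM after tunicamycin and 0, 44.6 and 54.3 FPKM in controls, overlapping throughout. Of the 2 cage genes, 1 was thus lower in every tunicamycin library and 1 was not. Sec16a, the scaffold of ER exit sites, had 3.30, 67.9 and 3.44 FPKM after tunicamycin and 0, 22.1 and 44.8 FPKM in controls.

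The inner coat genes varied between libraries of the same group, and the groups of each overlapped. Sec23a, which stimulates GTP hydrolysis by the Sar1 GTPase, had 71.5, 0 and 31.6 FPKM after tunicamycin, from only 30 and 12 reads. It was listed at 0 in controls, whereas its paralog Sec23b had reads in 1 tunicamycin and 2 control libraries. The limma estimate of Sec23a was 3.74 (SE 2.03, 95% interval -0.25 to 7.72). The FPKM behind it rested on a short assumed transcript length, given below. Of the cargo-binding Sec24 subunits, Sec24c alone was read in all 6 libraries, at 8.05, 0.904 and 10.3 FPKM after tunicamycin and 11.2, 10.1 and 15.2 FPKM in controls. Tunicamycin 2, with 7 reads, lay far below the other 5 libraries, and tunicamycin 3 lay inside the control range. Sec24b had 5.27, 0 and 73.2 FPKM after tunicamycin and 0, 0 and 86.0 FPKM in controls. Sec24d was read in tunicamycin 3 alone, with 117 reads. Sec24a was read in 2 tunicamycin libraries and 1 control library. Sar1a, the other Sar1 GTPase, had 5.67, 7.25 and 14.3 FPKM after tunicamycin and 0, 7.76 and 12.2 FPKM in controls.

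Copa, the alpha subunit of the COPI coatomer (chr1:172082529-172122330, plus strand), was the steadiest in FPKM of the 9 genes read in every library. It had 38.6, 50.9 and 51.4 FPKM after tunicamycin and 38.6, 30.2 and 41.4 FPKM in controls, a 1.7-fold range over the 6 libraries, and means of 46.9 ± 7.25 FPKM after tunicamycin and 36.8 ± 5.82 FPKM in controls (SD, n = 3 each). The limma estimate was 0.34 (SE 1.36, 95% interval -2.33 to 3.02). Its reads were less even, at 256, 410 and 88 after tunicamycin and 287, 225 and 246 in controls, a 5.01-fold range relative to library totals.

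Copg1, the gamma subunit that binds Arf1 and cargo (chr6:87887814-87913595, plus strand), was nearly unread after tunicamycin. It had 0, 0 and 0.133 FPKM from 0, 0 and 1 read after tunicamycin and 9.07, 5.04 and 23.7 FPKM from 64, 37 and 49 reads in controls. The groups did not overlap, and the limma estimate was -3.46 (SE 2.02, 95% interval -7.41 to 0.50). Its paralog Copg2 had 15 reads in tunicamycin 1 and 48 in control 3, and none elsewhere. Copz1, the zeta subunit, had 55.3, 32.5 and 21.9 FPKM after tunicamycin and 98.0, 2.17 and 34.8 FPKM in controls, which enclosed the tunicamycin values. Arcn1, the delta subunit, had 29.7, 15.4 and 17.2 FPKM after tunicamycin and 20.2, 0 and 7.09 FPKM in controls, and it has pseudogene copies at 97.0% identity. Copb1 and Copb2, the beta subunits, were read in 2 libraries of each group. Cope, the epsilon subunit, was read in tunicamycin 1 alone, with 34 reads.

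Of the GTPases that recruit the COPI coat, Arf4 separated the groups in FPKM and Arf1 did not. Arf4 (chr14:26638074-26665084, plus strand) had 48.5, 46.7 and 34.3 FPKM after tunicamycin and 9.69, 16.5 and 30.5 FPKM in controls. Every tunicamycin library lay above every control, with means of 43.2 ± 7.73 FPKM after tunicamycin and 18.9 ± 10.6 FPKM in controls (SD, n = 3 each), a ratio of 2.29. In reads, at 134, 119 and 76 after tunicamycin and 20, 43 and 118 in controls, the groups overlapped, and the limma estimate was 1.27 (SE 1.54, 95% interval -1.74 to 4.29). Arf1, the main coat recruiter, had 147.6, 39.4 and 102.8 FPKM after tunicamycin and 0, 36.6 and 71.3 FPKM in controls. Tunicamycin 2 lay inside the control range, and the estimate was 2.61 (SE 1.45, 95% interval -0.23 to 5.46), or 0.71 without control 1.

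**Figure D3:**
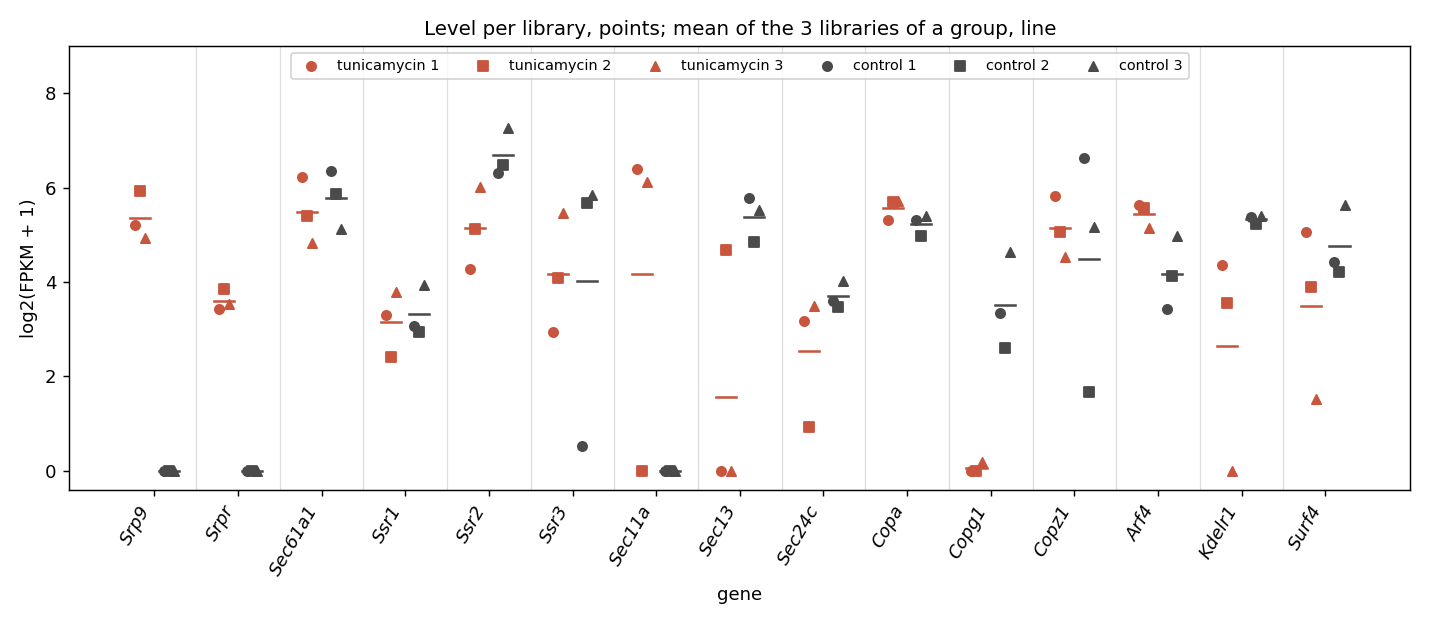
Level per library as log2(FPKM + 1) for the 15 genes that were read in all 6 libraries, did not overlap between groups or had an unadjusted limma p under 0.05, with tunicamycin points (red) left of control points (grey) and a line at each group's mean. Srp9, Srpr and Arf4 lie higher in every tunicamycin library than in any control, Ssr2, Sec13, Copg1 and Kdelr1 lie lower, and the other 8 overlap.

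The KDEL receptors, which catch escaped ER chaperones in the Golgi and return them in COPI vesicles, pointed in different directions. Kdelr1 (chr7:45872772-45883732, plus strand) had 19.5, 10.7 and 0 FPKM from 45, 9 and 0 reads after tunicamycin and 40.5, 36.4 and 40.9 FPKM from 84, 44 and 93 reads in controls. The groups did not overlap in FPKM, although tunicamycin 1 had 1 read more than control 2, and the limma estimate was -2.69 (SE 1.77, 95% interval -6.16 to 0.77). Kdelr2 had 27.8, 46.6 and 68.0 FPKM after tunicamycin and 0, 35.9 and 49.9 FPKM in controls, an estimate of 1.88 (SE 1.61, 95% interval -1.27 to 5.04) and only 0.07 without control 1. Kdelr3 was read in tunicamycin 3 with 17 reads and in control 2 with 78. Hspa5, the chaperone that these receptors retrieve, had 202, 175 and 172 FPKM after tunicamycin and 204, 109.7 and 81.3 FPKM in controls, also overlapping.

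The cargo receptors spanned the levels of the set, and the groups of each overlapped. Tmed2, a p24 protein that sorts cargo at both coats, had the highest mean, 82.7 FPKM over the 6 libraries, with 83.5, 54.5 and 107.4 FPKM after tunicamycin and 0, 132.6 and 118.4 FPKM in controls. The control values thus lay on either side of the tunicamycin values, and pseudogenes identical to Tmed2 leave its reads uncertain. Lman1, which carries clotting factors out of the ER together with Mcfd2, had 73.0, 158.2 and 0.156 FPKM after tunicamycin and 0, 13.4 and 59.9 FPKM in controls. Mcfd2 had 41 and 74 reads in tunicamycin 1 and 3 and was listed at 0 in all controls. Surf4, an export receptor for lipoproteins, had 32.5, 13.8 and 1.87 FPKM after tunicamycin and 20.5, 17.6 and 48.6 FPKM in controls, with tunicamycin 1 inside the control range. Of the SNAREs that fuse ER and Golgi vesicles, Stx5a had 46.5, 16.3 and 0 FPKM after tunicamycin and 0, 0 and 19.9 FPKM in controls. Sec22b had its highest value in control 1 with 112 reads, Bet1 was read only there with 83 reads, and Gosr2 had 71 reads in tunicamycin 3 against 1 read in control 2. Tmed10, the p24 partner of Tmed2, had 54 and 2 reads in tunicamycin 1 and 2, and 1 and 40 reads in controls 1 and 3, and it has a pseudogene at 99.5% identity.

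In order of mean level over the 6 libraries, Tmed2 was followed by Ssr2 at 72.4, Arf1 at 66.3, Sec61b at 56.2, Sec61a1 at 52.3, Sec11c at 51.1, Lman1 at 50.8, Copa at 41.8, Copz1 at 40.8 and Kdelr2 at 38.0 FPKM. Neighbours in this order did not differ beyond their spread between libraries, since of these genes all but Copa had at least a 2.95-fold range or a library at 0.

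No transport gene passed the test over all genes. All 52 genes with reads passed the filter of a mean of at least 1 FPKM, and 0 of 52 had an adjusted p under 0.05 in limma, where 0.065% of 7696 tested genes did (4 higher, 0.052%, and 1 lower, 0.013%, after tunicamycin, or 2 higher and 0 lower with TMM scaling). At an unadjusted p under 0.05 there were 3 of 52, Srp9, Sec11a and Sec13, against 3.09% of all genes tested. edgeR on the whole reads called 0 of 52 at an adjusted p under 0.05 (0.037% of all genes) and 2 at an unadjusted p, Srp9 and Srprb (1.44%). DESeq2 called 1, Srp9, with an adjusted p of 0.0409, where 0.604% of 8112 genes were called. Of those 8112, 4487 had no adjusted p, so the share among genes that could be called is larger. At an unadjusted p DESeq2 had 6 (6.6%), namely Mcfd2, Sec11a, Srp9, Copg1, Srpr and Srprb. The standard errors of the estimates ran from 1.21 to 2.06, so differences of several-fold in either direction stayed inside most intervals. These errors reflect the spread usual at a gene's level more than its own. Copa had an SE of 1.36 despite its 1.7-fold range over the libraries. An exact permutation test of 3 against 3 libraries cannot give a p below 0.1.

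The direction of the estimates was mixed within every role. Of the 52 genes, 31 were positive and 21 negative, 59.6% positive against 52.1% of all genes, with a median of 0.30 against 0.10 over all genes. Signal recognition and translocon genes were 9 positive and 11 negative (median -0.16), COPII genes 7 and 3 (0.83), COPI genes 8 and 2 (0.50), and receptors and SNAREs 7 and 5 (0.68). Between libraries of a group, the median deviation of a role's genes from their own means had an SD of 0.98 for signal recognition and translocon, 1.27 for COPII, 0.59 for COPI and 1.11 for receptors and SNAREs, each larger than the size of that role's median. Leaving out control 1, which lacked most COPII genes, gave 21 positive of 51, a COPII median of -0.65 and a receptor and SNARE median of -0.21, which was 0.16 without tunicamycin 1 and 0.29 without tunicamycin 2. The signal recognition and translocon median was 1.33 without control 2, 0.12 without tunicamycin 2, 0.21 without tunicamycin 3 and 0.15 without control 3, and the COPI median 1.37 without control 3.

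**Figure D4:**
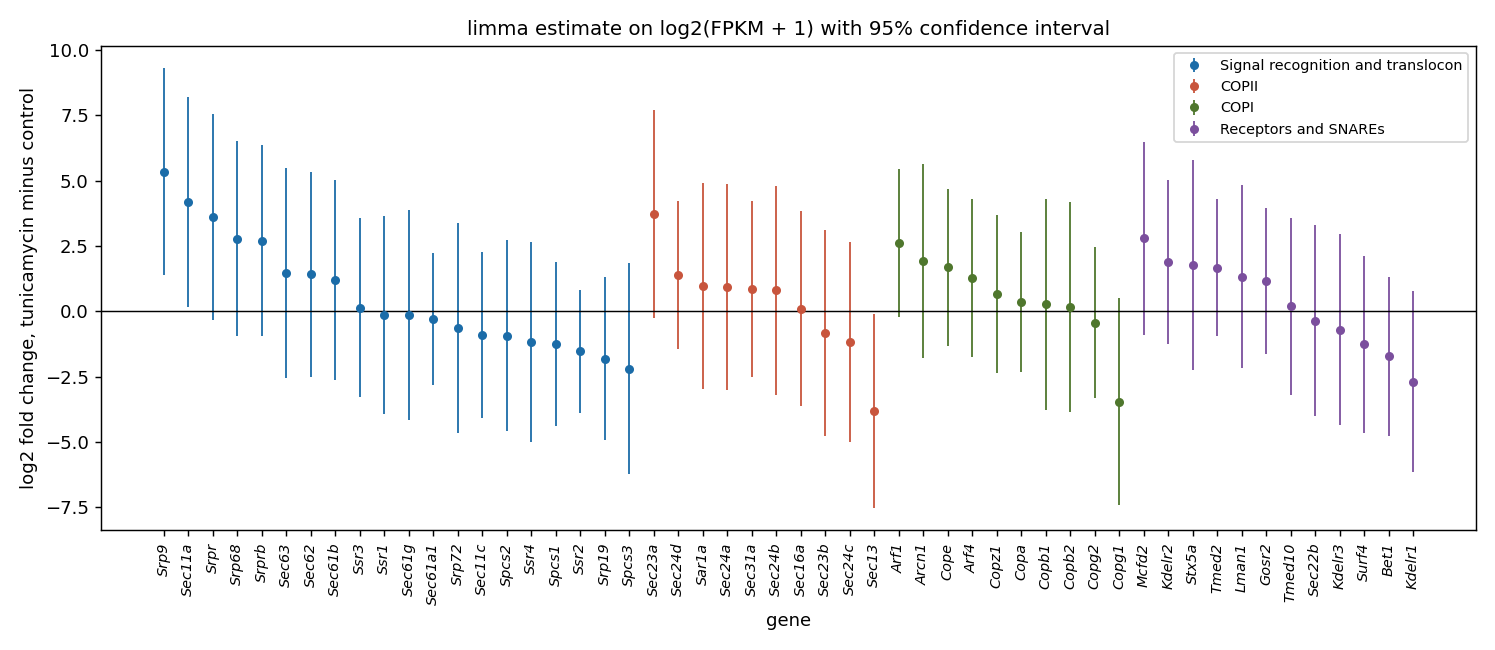
limma estimate of the log2 fold change on log2(FPKM + 1), tunicamycin minus control, with its 95% confidence interval (vertical lines) for the 52 genes with reads, ordered within each role. The intervals of Srp9, Sec11a and Sec13 exclude 0, before adjustment for the 7696 genes tested, and every other interval includes 0.

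Separation of the groups, library by library, was seen for 7 of the genes. The groups did not overlap in FPKM for 3 genes that were higher after tunicamycin (Srp9, Srpr and Arf4), where 3.03% of all genes tested behaved so, and for 4 that were lower (Ssr2, Sec13, Copg1 and Kdelr1), where 2.72% did. The higher count was 5 without tunicamycin 1, 8 without tunicamycin 2, 6 without tunicamycin 3 and 5 without control 1. With reads scaled to library totals in place of FPKM, the higher count was 2 and the lower count 4. Reads in tunicamycin libraries only were found for 8 of 52 genes, 15.4%, against 14.7% of all genes. Reads in control libraries only were found for 2, Srp19 and Bet1, 3.8% against 12.9% of all genes. These counts moved with single libraries: the first was 15 without control 2 and 13 without control 3, and the second 7 without tunicamycin 1, 4 without tunicamycin 2, 5 without tunicamycin 3, 1 without control 1 and 1 without control 2. Reads were present in more tunicamycin than control libraries for 24 of the 52 genes, where 36.2% of all genes tested behaved so. They were present in fewer for 8 of the 52, where 28.5% of all genes tested did, and in as many for 20.

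FPKM and reads ordered some libraries differently, and the transcript length behind an FPKM value was not constant between libraries. The ratio of estimated count to FPKM gives the length that was assumed, scaled here on genes with a single annotated transcript of at least 1500 nt. Shorter lengths may come out too low on this scale. Kdelr3, with a single annotated transcript of 1411 nt, came out at 1312 and 1318 nt. That length differed by more than 1.5-fold between libraries in 19 of 45 transport genes with at least 10 reads in 2 libraries (42.2%), and in 43.7% of 5817 genes over the table. Copa, so even in FPKM, had implied lengths of 3630, 4724 and 963 nt after tunicamycin and 4423, 4264 and 3212 nt in controls, and tunicamycin 3 combined the shortest length with the fewest reads. For Sec63 the lengths were 571 and 558 nt in tunicamycin 1 and 3 and 5341 and 5327 nt in controls 2 and 3. Its FPKM were accordingly 32.6 and 15.1 in those tunicamycin libraries and 2.90 and 5.58 in those controls, while its reads were 34 and 15 after tunicamycin and 27 and 55 in controls. Sec11c had 582 and 569 nt in tunicamycin 2 and 3 and 2741, 2750 and 333 nt in controls. Sec23a came out at 229 and 213 nt in tunicamycin 1 and 3, below its shortest annotated transcript of 370 nt. Its FPKM were thus high for its few reads. Srpr, at 3009, 2993 and 2995 nt, and Sec24c, at 4519 to 4553 nt, kept their lengths. Whether the liver used other transcripts or the assignment to transcripts differed was not tested.

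**Figure D5:**
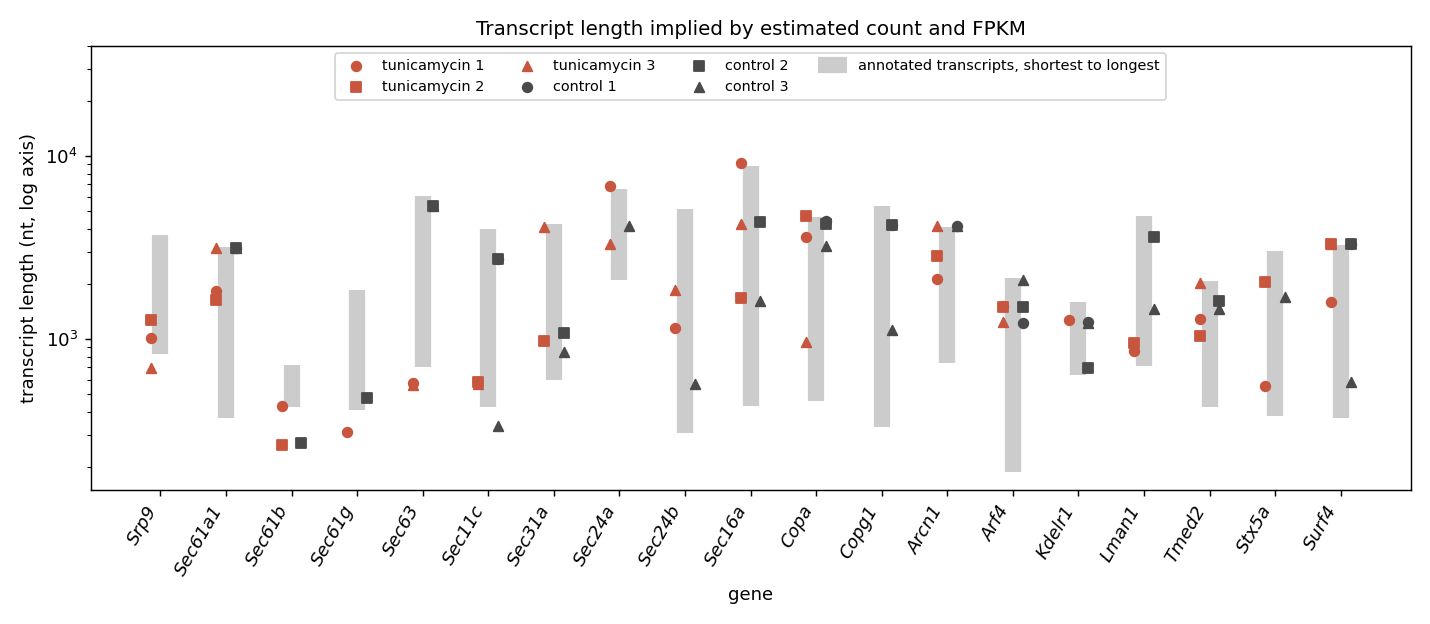
Transcript length implied by estimated count and FPKM (vertical log axis, nt) for the 19 genes whose length differed by more than 1.5-fold between libraries, tunicamycin in red and control in grey, with grey bars from the shortest to the longest transcript annotated in GENCODE M21. Both tunicamycin points of Sec63 lie below its shortest annotated transcript of 699 nt, while its control points lie within the annotated range. The scale was set on transcripts of at least 1500 nt, so a position below that range is uncertain.

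The letters TGACGTGG, the unfolded protein response element bound by XBP1 and ATF6, were found in the promoters of 7 transport genes: Sec24d, Copb1, Copb2, Arf1, Sec23a, Kdelr3 and Stx5a. The search covered both strands from 250 bases before to 50 after each start in RefSeq promoters (GRCm38.p6), which held 45 of the 55 genes, so 15.56% of these had a match, against 1.09% of tested genes and 0.71% of 27025 genes in the promoter table. The longer ER stress element (CCAAT, then any 9 bases, then CCACG), whose end overlaps the reverse complement of the shorter motif, was found in 0 of 45, against 0.14% of all genes. Shown are the 120 bases before the start of 4 genes, an inner COPII subunit, a coatomer subunit, a coat GTPase and a retrieval receptor, with the motif in capitals on either strand, from chr3:123267376-123267495 (plus), chr7:114254681-114254800 (minus), chr11:59228163-59228282 (minus) and chr15:79516288-79516407 (plus).
Sec24d: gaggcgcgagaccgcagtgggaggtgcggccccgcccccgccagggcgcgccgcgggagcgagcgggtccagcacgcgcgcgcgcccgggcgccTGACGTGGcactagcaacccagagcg
Copb1: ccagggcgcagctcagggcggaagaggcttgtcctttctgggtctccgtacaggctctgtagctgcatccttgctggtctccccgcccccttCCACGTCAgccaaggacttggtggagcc
Arf1: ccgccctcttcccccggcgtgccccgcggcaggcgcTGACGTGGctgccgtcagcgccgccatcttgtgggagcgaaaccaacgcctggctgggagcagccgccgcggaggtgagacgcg
Kdelr3: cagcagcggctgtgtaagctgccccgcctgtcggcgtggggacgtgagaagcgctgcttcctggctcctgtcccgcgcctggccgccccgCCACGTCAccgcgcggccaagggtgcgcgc

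A match is a description of these letters and no binding site was measured. The limma estimates of the genes that hold the motif were 1.38 (Sec24d), 0.26 (Copb1), 0.16 (Copb2), 2.61 (Arf1), 3.74 (Sec23a), 1.77 (Stx5a) and -0.70 (Kdelr3). All but that of Kdelr3 were above 0, where 59.6% of the 52 genes were, and each 95% interval included 0. Those of Copb1 and Copb2 changed sign when single libraries were left out. The libraries with reads differed between these genes. Arf1 had estimates above 0 and reads in 5 libraries, Sec24d was read in tunicamycin 3 alone, and Kdelr3 in tunicamycin 3 and control 2. Copb1 had 6.36, 0 and 19.9 FPKM after tunicamycin and 0, 3.27 and 20.05 FPKM in controls, with tunicamycin 3 and control 3 at the same level. Xbp1 itself, which encodes the factor, had 0, 1 and 0 reads after tunicamycin and 0, 0 and 177 in controls.

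Neighbouring genes of the same route showed the same mixture of single-library signals, and 0 of the 96 tested in 7 lists passed limma or edgeR over all genes. At an unadjusted limma p under 0.05 there were 6 of them, against 3.09% of all genes tested, and 56 of the 96 had positive estimates (58.3%), against 52.1% of all genes tested. Oligosaccharyltransferase, which attaches the glycan that tunicamycin withholds, had 5 of 12 tested genes positive, with a median of -0.30. Its small subunit Ost4 had 122.5, 2.76 and 0 FPKM after tunicamycin and 188, 93.6 and 203.8 FPKM in controls, an estimate of -4.31 (SE 1.45, limma adjusted p 0.716), with tunicamycin 1 inside the control range. Partners of the translocon had 9 of 11 positive (median 0.66), genes that insert tail-anchored and multi-pass membrane proteins 7 of 14 (-0.01), COPII regulators 10 of 18 (0.41), COPI regulators 7 of 10 (0.49), further p24 and cargo receptors 8 of 13 (1.07), and further SNAREs and tethers 10 of 18 (0.49). Arfgap2, which lets Arf1 release the COPI coat, had 176.8, 15.6 and 95.8 FPKM after tunicamycin and 0, 26.9 and 0 FPKM in controls, an estimate of 4.44 (SE 1.81). Emc1, a subunit of the membrane insertion complex, had 17.7, 27.4 and 128.8 FPKM after tunicamycin and 0, 0 and 1.18 FPKM in controls, with no overlap and an estimate of 4.98 (SE 2.00). Trappc1 and Trappc11, subunits of the TRAPP tether, and the SNARE Use1 were listed at 0 after tunicamycin and read in 2 control libraries each. Of these lists, DESeq2 called 1 gene at an adjusted p under 0.05, a COPII regulator, against 0.604% of all genes, those without an adjusted p included.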

How the data were processed

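Per the labels' protocols, ribosomal RNA was removed from total liver RNA and stranded libraries were made. Named in the submitters' processing notes are CASAVA 1.8, cutadapt 1.9.3, HISAT2 2.0.4, Cuffdiff and Cufflinks (no version) and the build mm10. The authors deposited FPKM and an estimated count per gene and library for 22564 genes, and 1 further line was not analysed here. The sources used here do not state how the deposited expected counts were scaled: 97.4% to 98.3% of values above 0 were whole multiples (within 0.01) of a step of 0.9953 to 1.0953 per library, and dividing by it and rounding to whole reads gave the reads.

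Groups were compared with limma 3.58.1 in R 4.3.3, using a variance trend on log2(FPKM + 1), 2-sided, for 7696 genes with a mean of at least 1 FPKM, adjusted by the Benjamini-Hochberg method at 0.05. Standard errors came almost wholly from the trend of variance with level. A fold change on this scale understates low genes. edgeR 4.0.16 (quasi-likelihood) and DESeq2 1.42.0 ran on the whole reads as alternatives, and 4487 genes had no adjusted p in DESeq2. The scripts were tested on simulated data. Libraries were grouped by their agent label. The genes, roles and further lists were chosen with earlier results of these data known. Values per library are given for genes read in all 6 libraries, genes whose groups do not overlap, genes with an unadjusted p under 0.05, and up to 4 further genes per role by mean FPKM. From each further list up to 4 genes with the smallest p could be named. Other genes' reads complete the account. Positions are from GENCODE M21, copies (at least 95% identity over 300 nt) from BLAST+ 2.17.0. Srprb, Sec61a1, Sec62 and Copg2 overlap another gene, and the sources used here do not say whether counting used strand. Alternatives covered the pseudocount, the filter, scaling, the variance trend, a replicate block and leaving out each library.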

Additional observations from a re-analysis of the deposited data

How the results depend on the processing

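No transport gene was called under any limma or edgeR alternative, and the number under DESeq2 was 1 (Srp9, log2 fold change 8.75). Over all genes the 5 calls became 4 with a pseudocount of 0.1, 2 with a pseudocount of 5, 0 without the filter, 2 with a mean of at least 10 FPKM, 2 with TMM, 4 with quantile scaling, 0 without the variance trend, 3 with edgeR (117 at an unadjusted p under 0.05) and 49 with DESeq2. With the replicate block it was 0. Same-numbered libraries deviated with correlations of -0.009, -0.014 and 0.002, and no library correlated best with its own number. Libraries of different number gave -0.009 to 0.018. All were near 0, so no pairing was seen, and the check cannot decide whether the numbers pair the samples. Leaving out 1 library gave 0 to 7 calls. It gave 7 to 15 genes read after tunicamycin only, 1 to 7 read in controls only, and 3 to 8 and 4 to 6 genes without overlap on the higher and lower side. Without 1 library, role medians ran from -0.49 to 1.33 for signal recognition and translocon, -0.65 to 1.53 for COPII, 0.31 to 1.37 for COPI and -0.21 to 1.11 for receptors and SNAREs. Other settings moved the COPII median to 1.87 (pseudocount of 0.1) and 0.28 (pseudocount of 5), receptors and SNAREs to 1.49 and COPI to 1.27 (mean of at least 10 FPKM), and signal recognition and translocon to 0.18 (pseudocount of 0.1) and -0.59 (edgeR). Signs were followed for 31 genes only, those chosen by the rule for values per library. The filter, the variance trend and the replicate block leave a gene's estimate unchanged, so their values could not turn. With those values counted in, the sign of 12 of 304 estimates turned under another setting: Sec61b to -0.02 in edgeR and -0.05 in DESeq2, Sec61g to 0.75 with a pseudocount of 0.1, Ssr3 to -0.22 with a pseudocount of 5, -1.12 with quantile scaling, -0.56 in edgeR and -0.35 in DESeq2, Sec16a to -0.14, -0.25 and -0.17 with a pseudocount of 5, quantile scaling and edgeR, Copz1 to -0.35 in DESeq2, and Tmed2 to -0.07 in edgeR. Without 1 library 28 of 186 turned, with ranges of -0.82 to 1.47 (Copb1), -0.81 to 1.21 (Copb2), -0.76 to 1.72 (Copz1), -0.31 to 3.50 (Lman1), -1.94 to 1.14 (Sec11c), -1.57 to 1.19 (Sec16a), -0.82 to 2.95 (Sec24b), -1.04 to 1.86 (Sec31a), -0.67 to 0.03 (Sec61a1), -0.30 to 3.77 (Sec61b), -1.35 to 1.95 (Sec61g), -0.47 to 0.22 (Ssr1), -1.60 to 1.06 (Ssr3) and -0.66 to 2.87 (Tmed2). The cause of these shifts was not tested. Genes under 3 reads in a library lie below what these depths resolve, for counting error alone. Genes with 50 reads in 1 library were often listed at 0 in another of the group, so zeros are less certain than this bound.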
